A study of Mus musculus with 6 samples.

Results

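Growth hormone from the pituitary acts on the liver through its receptor, the kinase JAK2 and the transcription factor STAT5, of which STAT5B is the main form in hepatocytes. STAT5 raises the transcription of Igf1, the growth factor that mediates much of the hormone's action, of Igfals, and of Socs2 and Cish, whose products dampen the signal. In blood, IGF1 is carried by binding proteins. IGFBP3 and the acid-labile subunit encoded by Igfals form a long-lived complex with it, whereas IGFBP1 and IGFBP2 form smaller and shorter-lived ones, and insulin represses Igfbp1 in the liver. The 10 genes described here were chosen by symbol for these roles (Ghr, Stat5a, Stat5b, Socs2, Cish, Igf1, Igfals, Igfbp1, Igfbp2 and Igfbp3), with earlier results of these data known. All 10 were found among the 54532 genes of the count table.

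Polyadenylated RNA of whole liver was sequenced from 6 mice on the C57BL/6J/Rj background, 3 in each of 2 groups. The 3 knockout mice were LysMcre/+ Cd44flox/flox, so that Cre expressed from the LysM (Lyz2) locus of myeloid cells deletes floxed Cd44, and the 3 control mice were LysM+/+ Cd44flox/flox littermates without Cre, labelled WT. The product of Cd44 binds hyaluronan at the cell surface, and the question was what losing it in myeloid cells does in alcohol-related liver disease. For 10 days all 6 mice were kept on the Lieber-DeCarli liquid diet containing 6% (volume) ethanol. On day 11 each was gavaged with ethanol at 5 g per kg, and livers were taken 9 hours afterwards. No livers without ethanol and no mice with Cre alone were analysed here, so Cre and the altered Lyz2 allele cannot be told apart from the loss of Cd44. The sources used here state neither the age nor the sex of the mice.

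The libraries held 18428224 to 24042917 counts. Cd44 was lower in every knockout liver (1.92 to 3.01 CPM, the counts scaled to a common library size) than in any control liver (26.4 to 34.8 CPM), with a log2 fold change of −3.73 (adjusted p = 9.07e-05), and Lyz2 was also lower in every knockout liver (36.9 to 66.5 against 195 to 235 CPM). All 11 matched hepatocyte markers were expressed, 5 of them rose and 0 fell, and their summed level was 93896 to 110637 CPM in controls and 117162 to 154346 CPM in knockouts. Most of this sum was Alb (52693 to 60300 against 72352 to 96513 CPM). Hpx, named after its values were seen, was lower in every knockout liver (5799 to 7568 against 3402 to 5416 CPM). It did not pass (edgeR adjusted p = 0.0589) but did in 5 of 14 alternatives. The X-linked transcript Xist stood at 354 to 676 CPM, and the Y-linked genes Ddx3y, Eif2s3y, Uty and Kdm5d had 0 counts in all 6 livers, where a limit of 3 counts corresponds to 0.125 to 0.163 CPM. Both groups therefore showed the transcripts of female mice, and, as background, growth hormone secretion and its hepatic targets differ between the sexes. Markers of some other cell types moved with genotype. Among all genes tested, 11.9% were higher and 13.1% lower. The summed level of 12 shared myeloid markers was 408 to 499.7 CPM in controls and 132 to 252 CPM in knockouts, and all 12 were lower by the test. The 12 Kupffer cell markers summed to 1265 to 1347 CPM in controls and 394 to 802 CPM in knockouts, where 10 were lower and 0 higher. Sums for 11 endothelial (411 to 448 against 338 to 456 CPM), 9 stellate cell (604 to 755 against 682 to 766 CPM) and 7 cholangiocyte markers (72.8 to 74.8 against 66.7 to 74.4 CPM) overlapped between the groups. Those of 7 erythroid genes did not (43.4 to 86.4 against 131 to 162 CPM). None of these marker lists had a gene at 0 counts in all livers. In whole liver, fewer cells of a type and less RNA per cell cannot be told apart, and the part of these cell types in the results below was not tested.

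Transcripts of the hormone receptor, its main transcription factor, IGF1 and the acid-labile subunit were higher in the knockout livers, and that of the short-lived carrier IGFBP1 was lower. The rise of the transcription factor gene Stat5b was small and passed under 7 of 15 alternative settings of the analysis. Of the 10 genes, Ghr, Stat5b, Igf1 and Igfals rose and Igfbp1 fell at an adjusted p under 0.05 (edgeR quasi-likelihood test, Benjamini-Hochberg adjustment over 14758 genes). Stat5a, Socs2, Cish, Igfbp2 and Igfbp3 did not pass. Among all genes tested, 25.0% passed in either direction, 11.9% higher and 13.1% lower, beside 4 and 1 of the 10 members. The 2 groups of livers did not overlap for 6 of the 10 members (4 higher, 2 lower) and for 43.8% of all genes (21.4% higher, 22.5% lower). The median log2 fold change was 0.49 over the 10 members and −0.01 over all genes tested. Scaling by library totals in place of TMM, the default correction for composition used here, moved the median of all genes to −0.26 and gave 904 higher and 3698 lower genes in place of 1751 and 1933. Under it 3 members rose and 2 fell. All 10 passed the filter on low counts, with at least 230 counts in every library.

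**Figure D1:**
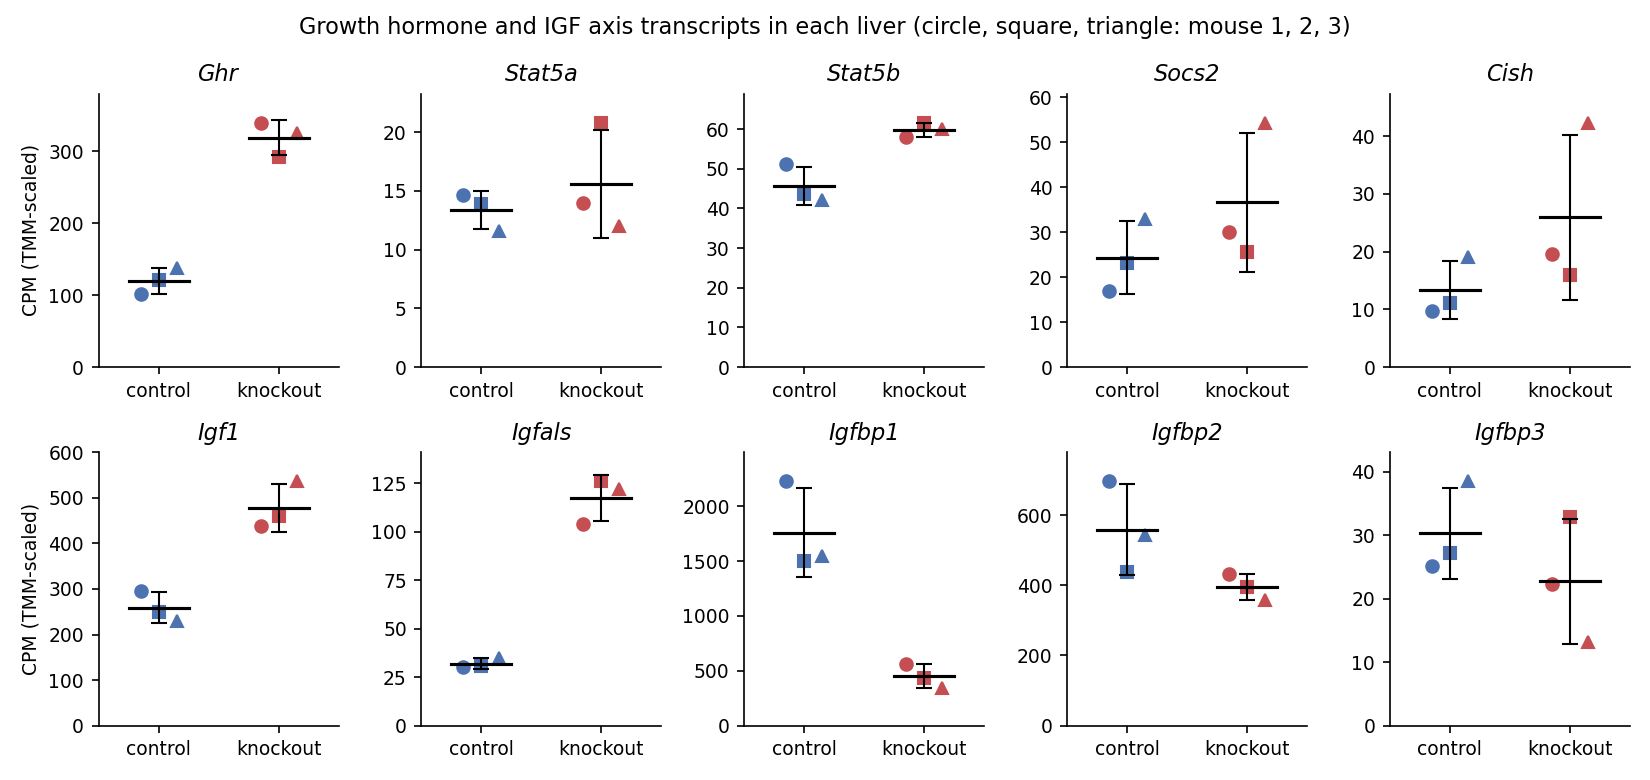
Level of each of the 10 transcripts in TMM-scaled CPM (linear axes from 0) in the 3 control (blue) and 3 knockout (red) livers; bars give the mean and SD over 3 livers. The groups do not overlap for Ghr, Stat5b, Igf1, Igfals, Igfbp1 and Igfbp2, and knockout liver 3 stands above the other livers for Socs2 and Cish.

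**Figure D2:**
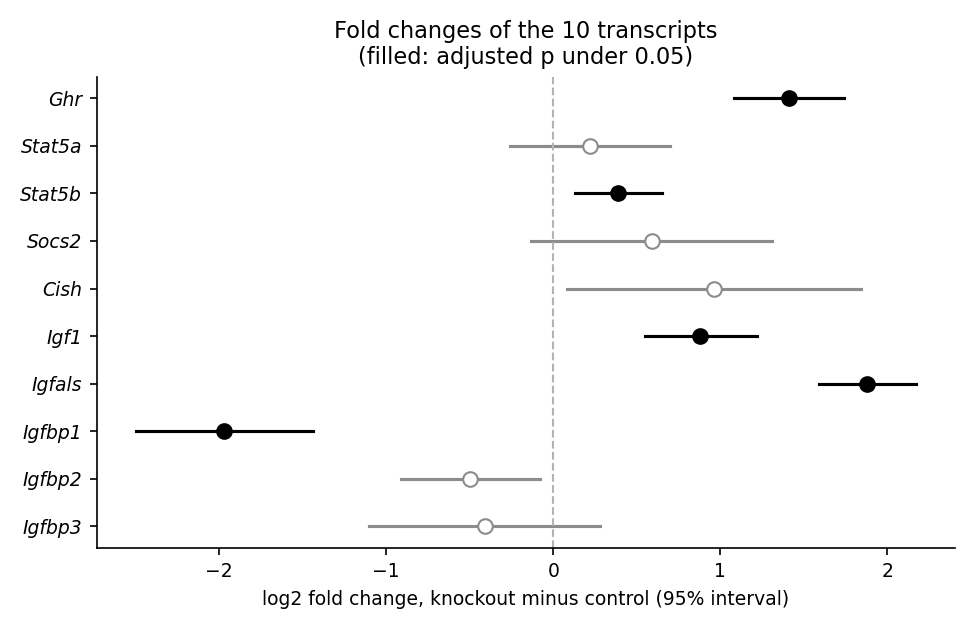
Log2 fold change of the 10 transcripts, knockout minus control, with 95% intervals from the edgeR fit; filled points passed at an adjusted p under 0.05. Igfals, Ghr, Igf1 and Stat5b lie to the right of 0 and Igfbp1 lies at −1.97.

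Ghr (ENSMUSG00000055737, chromosome 15, 3317760 to 3583492 on the minus strand, GRCm38) encodes the growth hormone receptor. Its level was 102, 121 and 138 CPM in control livers 1, 2 and 3 and 340, 292 and 326 CPM in knockout livers 1, 2 and 3. Every knockout liver was above every control liver, and the gap between the groups was wider than the range inside either. The mean rose from 120.1 ± 18.1 to 319 ± 24.6 CPM (SD, n = 3 livers per group), a 2.66-fold difference (log2 1.41, SE 0.14, 95% interval 1.08 to 1.74, edgeR adjusted p = 0.000755). The gene also gives rise to a shorter transcript for the soluble growth hormone binding protein, and gene-level counts do not separate the forms.

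The pair of STAT5 genes lies head to head on chromosome 11, Stat5b (ENSMUSG00000020919, 100780731 to 100850724, minus strand) and Stat5a (ENSMUSG00000004043, 100859351 to 100885169, plus strand), with 8626 bases and no other gene between them. Stat5b stood at 51.1, 43.7 and 42.2 CPM in controls and at 58.1, 61.6 and 59.98 CPM in knockouts. The knockout livers were close to each other and all above the controls. The rise was small (1.31-fold, log2 0.39, SE 0.11, 95% interval 0.13 to 0.65, edgeR adjusted p = 0.0372). It did not pass with control liver 2 or 3, or any of knockout livers 1, 2 and 3, left out (adjusted p = 0.103, 0.0944, 0.0812, 0.0768 and 0.0667), with no filter on low counts (0.057) or with scaling by library totals (log2 0.14, adjusted p = 0.419). Stat5a stood at 14.7, 13.9 and 11.6 CPM in controls and at 13.95, 20.8 and 12.0 CPM in knockouts, so the groups overlapped and knockout liver 2 alone was above the controls. Its log2 fold change of 0.22 (95% interval −0.26 to 0.7, edgeR adjusted p = 0.477) was −0.04 without knockout liver 2, 0.38 without knockout liver 3 and −0.05 with library totals. Of all stretches of 100 bases in annotated Stat5a transcripts, 3.4% also occur in Stat5b transcripts, and 4.8% of those in Stat5b occur in Stat5a. For stretches of 50 bases the shares were 8.2% and 11.0%. Stat3 on the other strand shares 72 exonic bases of Stat5a. The division of reads among these genes is therefore uncertain, to an extent that depends on the length of the reads. Per kilobase of exon, Stat5b was 4.41 ± 0.329 times Stat5a in controls and 5.2 ± 1.31 times in knockouts.

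Socs2 (ENSMUSG00000020027, chromosome 10, 95385362 to 95417180, minus strand) and Cish (ENSMUSG00000032578, chromosome 9, 107296026 to 107302784, plus strand) encode suppressors of cytokine signalling that STAT5 induces and that feed back on the growth hormone receptor. Cish is known for paired STAT5 elements near its start. The window of its RefSeq promoter (GRCm38.p6) holds the STAT element TTCNNNGAA, which reads the same on both strands, at 2 places, and both are shown in capitals from base −100 to base 20 relative to the annotated start (chr9:107296559-107296678, plus strand):
Cish: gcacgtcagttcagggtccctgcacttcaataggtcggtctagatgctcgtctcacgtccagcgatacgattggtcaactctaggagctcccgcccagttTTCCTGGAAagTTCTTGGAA
The first match starts at base 1 and the second at base 12. Across all 32851 RefSeq promoter windows of 300 bases, 8.3% held at least 1 match to these letters and 0.457% held 2 or more. A match is a description of sequence and does not show binding.

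Socs2 stood at 16.96, 23.2 and 32.9 CPM in controls and at 29.9, 25.6 and 54.3 CPM in knockouts. The groups overlapped, and the log2 fold change of 0.59 (SE 0.32, 95% interval −0.13 to 1.31) did not pass (edgeR adjusted p = 0.21). Cish stood at 9.73, 11.1 and 19.05 CPM in controls and at 19.6, 15.9 and 42.3 CPM in knockouts. These groups overlapped as well, with control liver 3 between the lower pair of knockout livers, and the log2 fold change of 0.96 (SE 0.39, 95% interval 0.08 to 1.84) had an edgeR adjusted p of 0.104. Without knockout liver 3 the log2 values were 0.19 for Socs2 and 0.42 for Cish, and without control liver 3 they were 0.89 and 1.33. Cish passed with DESeq2 (adjusted p = 0.0319), with no filter on low counts (0.0117) and without knockout liver 2 (0.0469). It shares 740 exonic bases with the antisense genes Gm17040 and Gm17041, which had 0 to 3 counts per library against 230 to 858 for Cish. The sources used here do not state how strand was handled in counting.

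Socs2 and Cish varied more from liver to liver than Ghr or Igf1 did. The coefficient of variation (SD as a percentage of the mean) was 32.9% and 42.2% for Socs2 and 37.8% and 55.1% for Cish in controls and knockouts, against 15% and 7.7% for Ghr and 13.1% and 10.9% for Igf1. Mouse 3 had the highest level of both genes in each group. Socs2 in it was 1.64 times the mean of the other two control livers and 1.96 times that of the other two knockout livers, and Cish 1.83 and 2.38 times. Ordered by Socs2 or by Cish, the 6 livers fell in the same sequence except for control liver 3 and knockout liver 1, which changed places. The mouse number is not said to mark a shared litter or day. Of the other genes, Igfbp3 was highest in control liver 3 and lowest in knockout liver 3, and Ghr in knockout liver 3 was 1.03 times the mean of the other two.

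**Figure D3:**
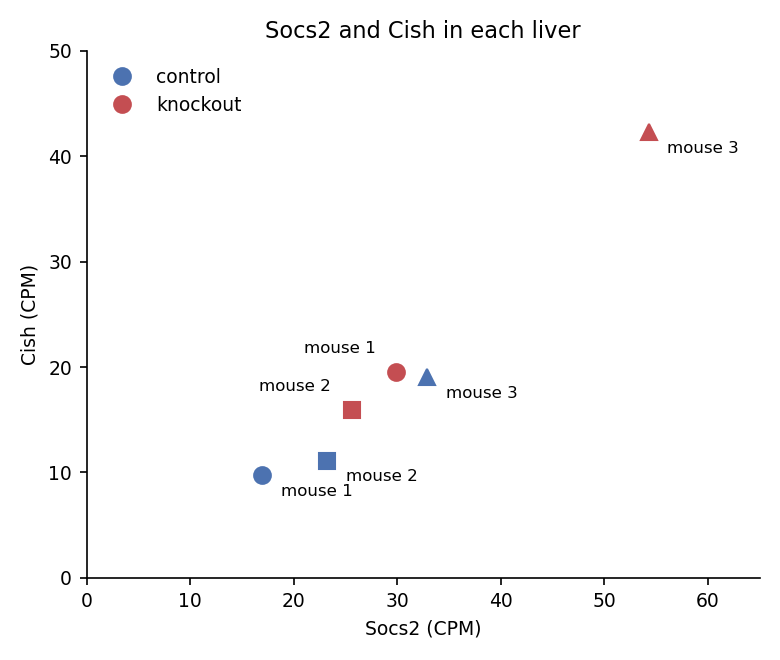
Cish against Socs2 in CPM (linear axes) in each of the 6 livers; colours give the genotype and labels the mouse number within its group. Knockout liver 3 (54.3 and 42.3 CPM) is farthest from the other 5 livers, and control liver 3 lies among the knockout livers.

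Igf1 (ENSMUSG00000020053, chromosome 10, 87858265 to 87937042, plus strand) encodes insulin-like growth factor 1, most of which reaches the blood from hepatocytes. It stood at 296, 249.7 and 230.3 CPM in controls and at 437, 459.9 and 536 CPM in knockouts, without overlap. The mean rose 1.85-fold from 259 ± 34.0 to 478 ± 51.9 CPM (log2 0.88, SE 0.15, 95% interval 0.55 to 1.22, edgeR adjusted p = 0.00425). Macrophages also transcribe Igf1, and the myeloid markers given above were lower in the same livers in which Igf1 was higher. Whole-liver counts do not assign Igf1 to a cell type, and the source of its rise was not tested.

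Igfals (ENSMUSG00000046070, chromosome 17, 24865997 to 24882010, plus strand) encodes the acid-labile subunit, a leucine-rich protein made almost only by hepatocytes. It stood at 30.1, 30.7 and 35.1 CPM in controls and at 104, 126 and 122 CPM in knockouts. The lowest knockout liver was nearly 3 times the highest control liver, and the mean rose 3.67-fold from 31.9 ± 2.71 to 117 ± 11.9 CPM (log2 1.88, SE 0.13, 95% interval 1.59 to 2.17, edgeR adjusted p = 0.000179). This was the largest rise of the 10 genes. Of 3 RefSeq promoter windows of Igfals, 2 held TTCNNNGAA. The match nearest to an annotated start, in capitals, began at base −58, and the stretch from base −130 to base −1 is shown because Igfals had the largest rise (chr17:24878101-24878230, plus strand, GRCm38.p6):
Igfals: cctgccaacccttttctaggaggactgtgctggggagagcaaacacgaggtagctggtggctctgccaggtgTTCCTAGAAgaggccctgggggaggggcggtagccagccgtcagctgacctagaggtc
Of the 9 members with a window in the table (15 windows in all), Cish and Igfals were the only ones that held this motif. Igf1, Ghr and the others without a match lack these letters only in the 300 bases searched. Socs2 had no entry.

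Igfbp1 (ENSMUSG00000020429, chromosome 11, 7197782 to 7202546, plus strand) encodes a small IGF-binding protein that hepatocytes make in fasting, in stress and when insulin is low. It stood at 2226, 1504 and 1547 CPM in controls and at 564, 436 and 347 CPM in knockouts. Control liver 1 was the highest of all, and every knockout liver was far below the lowest control. The mean fell 3.92-fold from 1759 ± 405 to 449 ± 109 CPM (log2 −1.97, SE 0.23, 95% interval −2.5 to −1.44, edgeR adjusted p = 0.0012). The Igfbp1 promoter is known for an insulin response element bound by FOXO factors. A search for TTNTTTTG on both strands, letters taken from that element, found 2 matches in its RefSeq window, in capitals, on opposite strands with 2 bases between them (chr11:7197627-7197786, plus strand, bases −160 to −1 before the start):
Igfbp1: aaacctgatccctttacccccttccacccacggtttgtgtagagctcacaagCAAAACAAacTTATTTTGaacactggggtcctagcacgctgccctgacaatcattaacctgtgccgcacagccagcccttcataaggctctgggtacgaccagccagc
The matches begin at bases −108 (minus strand) and −98 (plus strand). Of all promoter windows, 7.95% held at least 1 match and 0.776% held 2 or more, and Igfbp1 was the only member with any. Since the letters came from the Igfbp1 element, its own matches were given in advance. The shares only describe how common the letters are.

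Igfbp3 (ENSMUSG00000020427, 7206086 to 7213923, minus strand), the partner of IGF1 and the acid-labile subunit, ends 3539 bases from the end of Igfbp1 with no gene between them. In liver it is made mainly by nonparenchymal cells. The neighbours differed: Igfbp3 stood at 25.1, 27.3 and 38.5 CPM in controls and at 22.4, 32.9 and 13.2 CPM in knockouts, groups that overlapped (log2 −0.41, SE 0.3, 95% interval −1.1 to 0.28, edgeR adjusted p = 0.36). Igfbp2 (ENSMUSG00000039323, chromosome 1, 72824503 to 72852474, plus strand) is a second hepatic carrier that growth hormone is known to lower. It stood at 696, 438 and 542 CPM in controls and at 433, 396 and 358 CPM in knockouts. The highest knockout liver was only just below the lowest control liver. The log2 fold change of −0.5 (SE 0.18, 95% interval −0.91 to −0.08) did not pass (edgeR adjusted p = 0.0782). It did pass with DESeq2 (0.0436), with no filter on low counts (0.0479), with library totals (log2 −0.75, 0.0144) and without control liver 2 (log2 −0.63, 0.0477), and its log2 fold change was −0.29 without control liver 1.

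Levels of different genes can be compared only per length, here as CPM per kilobase of annotated exon, a length that counts every isoform and so understates genes with long rare exons. On this scale the order in the controls was Igfbp1 (1154 ± 266), Igfbp2 (302 ± 70.3), Igf1 (26.1 ± 3.44), Ghr (13.3 ± 1.995), Igfals (10.1 ± 0.856), Igfbp3 (9.68 ± 2.30), Stat5b (8.24 ± 0.864), Socs2 (2.55 ± 0.841), Cish (2.07 ± 0.783) and Stat5a (1.87 ± 0.225). Neighbours overlapped between livers from Igfals to Stat5b and from Socs2 to Stat5a, and were separate elsewhere. In the knockouts the 2 leading genes came close, at 294 ± 71.6 for Igfbp1 and 214 ± 20.3 for Igfbp2, and their livers overlapped. Igf1 followed at 48.2 ± 5.24, and Igfals (37.0 ± 3.76) and Ghr (35.2 ± 2.72) overlapped each other. The ratio of the Igfbp1 to the Igf1 level per kilobase was 48.8, 39.1 and 43.6 in controls and 8.38, 6.16 and 4.2009 in knockouts. The ratio of Igf1 to Igfals was 3.15, 2.60 and 2.1007 in controls and 1.35, 1.17 and 1.40 in knockouts. In both ratios the groups were separate.

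The make-up of all IGF-binding protein transcripts differed with the fall of Igfbp1. Summed over Igfbp1 to Igfbp7, the level per kilobase was 2332, 1746 and 1921 in controls and 1327, 1306 and 1109 in knockouts. Igfbp1 made up 62.6%, 56.5% and 52.8% of this sum in controls and 27.9%, 21.9% and 20.5% in knockouts. Igfbp4, a hepatocyte carrier that mostly withholds IGF from its receptor, made up 15.9%, 22.6% and 24.8% in controls and 48.2%, 53.7% and 54.6% in knockouts. The share of Igfbp2 was 13.6% to 16.2% in controls and 16.4% to 17.7% in knockouts. Per kilobase, Igfbp1 thus led in every control liver and Igfbp4 in every knockout liver. The order in control livers 2 and 3 depends on the annotated exon lengths, 1525 bases for Igfbp1 and 4416 for Igfbp4. In CPM, Igfbp4 was above Igfbp1 in these livers (1745 against 1504 and 2101 against 1547) and below it in control liver 1 (1637 against 2226). Igfbp3, Igfbp5 and Igfbp6 together stayed a small part, each at most 0.804% in any liver.

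**Figure D4:**
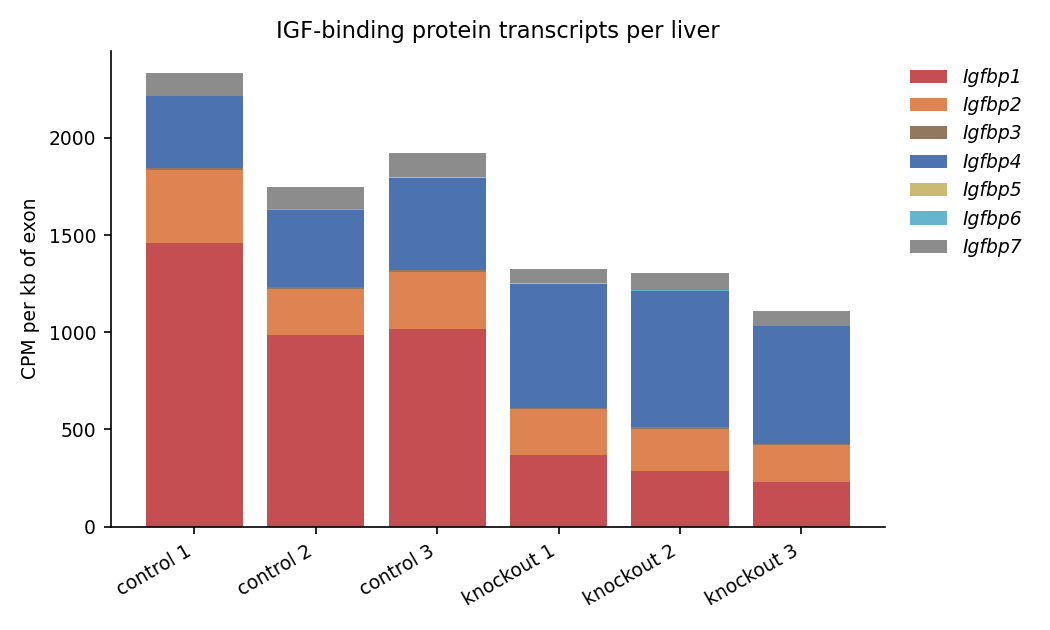
Summed level of the 7 IGF-binding protein transcripts in each liver in CPM per kb of exon (linear axis from 0), stacked by gene. Igfbp1 (red) is the largest part in the 3 control livers and Igfbp4 (blue) in the 3 knockout livers.

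Outside the 10 members, genes of the same pathway were taken from lists chosen by role. The choice was made with earlier results of these data known, so the lists are not independent of the data. Among all genes tested, 11.9% were higher and 13.1% lower, the shares to set beside the counts below. Of 12 other binding proteins and IGF-binding protein proteases or their inhibitors, 9 were tested, of which 1 rose and 5 fell (median log2 −1.05). The size of this median rested on genes of low counts: with at least 50 counts required in 3 libraries, 5 genes were tested, 1 rose, 3 fell and the median was −0.55. It was −0.63 without control liver 2. Igfbp4 was the one that rose, from 1828 ± 243 to 2866 ± 215 CPM (log2 0.65, SE 0.16, edgeR adjusted p = 0.0203), and it lost its call with library totals and when control liver 1 or 2 or knockout liver 1 was left out. Adamts1, a metalloprotease, fell from 73.02 ± 13.2 to 31.8 ± 4.24 CPM (edgeR adjusted p = 0.00183) and Igfbp7, made mainly by vascular and stromal cells, from 139.7 ± 5.59 to 97.3 ± 10.1 CPM (edgeR adjusted p = 0.0138). Of 9 stellate cell markers 2 also fell (Pdgfrb, 26.3 ± 1.19 to 14.96 ± 2.05 CPM, and Des, 10.4 ± 0.192 to 6.55 ± 0.869 CPM) and 1 rose (Ecm1, 139 ± 25.7 to 224 ± 20.6 CPM), and 0 of 11 endothelial markers passed. Their part in the fall of Igfbp7 was not tested. The other 3 counted as fallen had few counts. Pappa, the protease that cleaves IGFBP4, had 16, 19 and 16 counts in controls and 1, 0 and 0 in knockouts. Stc1, a stanniocalcin, had 18, 17 and 13 counts against 4, 0 and 0. Igfbp6 had 54, 88 and 61 counts against 1, 27 and 7. All 3 passed the filter on low counts only through the control livers, so a difference in this direction was built into their being tested. No p is given for them. Igfbp4 and Igfbp6 were named after their values were seen. When control liver 2, control liver 3 or knockout liver 1 was left out, 3 of the list fell instead of 5.

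Among 24 genes that act at or near the receptor, 6 rose and 3 fell (median log2 −0.25), beside 11.9% and 13.1% of all genes. Prlr, the prolactin receptor that shares JAK2 and STAT5 with the growth hormone receptor, rose from 77.9 ± 15.7 to 239 ± 35.9 CPM, a log2 fold change of 1.62 (SE 0.18, edgeR adjusted p = 0.00104). The hepatocyte transcription factor Onecut1 rose (9.62 ± 2.39 to 21.7 ± 2.32 CPM, edgeR adjusted p = 0.00361). So did Nr3c1, the glucocorticoid receptor, which cooperates with STAT5 in hepatocytes (66.4 ± 2.90 to 99.7 ± 8.72 CPM, edgeR adjusted p = 0.00752). The 3 that fell were the receptor's kinase Jak2 (28.4 ± 3.44 to 19.7 ± 2.15 CPM, edgeR adjusted p = 0.0223), the suppressor Socs5 (21.3 ± 2.66 to 14.4 ± 2.40 CPM, edgeR adjusted p = 0.0328) and Ptpn1, a phosphatase that acts on JAK2 (56.3 ± 11.2 to 35.1 ± 1.62 CPM, edgeR adjusted p = 0.0136). The following 3 were named after their values were seen, as were the 3 that fell. Cux2, a repressor that continuous growth hormone induces in female liver, stood at 3.30, 14.2 and 17.8 CPM in controls and at 52.4, 50.5 and 49.04 CPM in knockouts (log2 2.11, edgeR adjusted p = 0.0142). Socs3, which inflammatory cytokines induce, stood at 50.4, 14.3 and 22.5 CPM in controls and at 7.24, 12.0 and 14.2 CPM in knockouts (edgeR adjusted p = 0.0507). Bcl6, which pulses of growth hormone repress, stood at 24.4, 13.3 and 9.78 against 10.02, 13.4 and 7.59 CPM (edgeR adjusted p = 0.216). Leaving out control liver 1, control liver 3 or knockout liver 1 left 1 of the list that fell. Scaling by library totals gave 4 that rose and 11 that fell.

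Of 11 IGF ligands, receptors and adaptors, 8 were tested, 2 rose and 1 fell (median log2 −0.3), beside 11.9% and 13.1% of all genes. Igf2, the fetal IGF, had 0 counts in every liver, and Igf1r, the IGF1 receptor, which adult hepatocytes barely express, had 46 to 131 counts, and both were named after their values were seen. Igf2r, the scavenging receptor for IGF2 and mannose 6-phosphate, fell from 141 ± 15.8 to 82.0 ± 8.01 CPM (log2 −0.78, SE 0.13, edgeR adjusted p = 0.00458). Grb14, an inhibitor of the insulin receptor, rose from 38.8 ± 1.03 to 58.6 ± 7.47 CPM (edgeR adjusted p = 0.0104) and the insulin receptor substrate Irs1 from 13.0 ± 3.09 to 22.2 ± 5.58 CPM (edgeR adjusted p = 0.0383). Of 17 genes known to respond to insulin or FOXO factors, 1 rose and 2 fell (median log2 −0.18), beside the same shares of all genes. G6pc, the glucose-6-phosphatase of gluconeogenesis, which insulin represses as it does Igfbp1, rose from 121 ± 14.4 to 416 ± 53.6 CPM (log2 1.78, SE 0.15, edgeR adjusted p = 0.000414). Sik1, a kinase that dampens gluconeogenic transcription, fell from 92.4 ± 41.4 to 35.4 ± 10.8 CPM (edgeR adjusted p = 0.0173) and the stress gene Ddit4 from 88.2 ± 42.8 to 27.3 ± 19.8 CPM (edgeR adjusted p = 0.0467). The groups overlapped for Ddit4 (47.4 to 133 against 11.8 to 49.6 CPM). It did not pass with DESeq2 (adjusted p = 0.0785) or without control liver 1 or 3 or knockout liver 1 or 3 (adjusted p = 0.144, 0.0978, 0.141 and 0.0928). Igfbp1 and G6pc thus changed in opposite directions, and 14 of the 17 did not pass. Among these were Pck1 (log2 −0.15, edgeR adjusted p = 0.776) and Ppargc1a (log2 −0.06, edgeR adjusted p = 0.929), both named after their values were seen. The part of insulin was not tested. With library totals, 0 of the 8 receptors and adaptors rose and 2 fell, and 5 of the 17 insulin-responsive genes fell. Single livers moved these small counts too. Of the receptors and adaptors, 1 rose without any 1 of control livers 1 to 3 or knockout liver 2, and 2 fell without knockout liver 2 or 3. Of the insulin-responsive genes, 4 fell without knockout liver 2, and 1 fell without control liver 1 or 3 or knockout liver 1 or 3.

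The known sex-biased targets of growth hormone in liver were divided by the sex in which they are higher. Of 24 female-biased genes, all tested, 16 rose and 0 fell (median log2 1.95), beside 11.9% and 13.1% of all genes. Sult3a1, named after its values were seen, was among the 16, at 0 to 0.193 CPM in controls and 3.55 to 25.3 CPM in knockouts. It passed the filter on low counts only through the knockout livers, so its rise was built into its being tested. The sulfotransferase Sult2a1 rose from 26.6 ± 1.66 to 312 ± 42.6 CPM (log2 3.55, SE 0.15, edgeR adjusted p = 3.52e-05) and the cytochrome P450 Cyp2b13 from 16.9 ± 4.08 to 288 ± 94.1 CPM (log2 4.09, SE 0.29, edgeR adjusted p = 0.000185). Slc22a26, an organic anion transporter, rose from 24.3 ± 1.28 to 142 ± 37.3 CPM (edgeR adjusted p = 0.000249). Of 18 male-biased genes, 12 were tested, 2 rose and 2 fell (median log2 0.11, −0.15 with library totals). Mup3, a major urinary protein, rose from 18.0 ± 1.72 to 490.3 ± 249 CPM (edgeR adjusted p = 0.000245) and Cyp7b1, an oxysterol hydroxylase, from 4.06 ± 0.804 to 9.998 ± 1.98 CPM (edgeR adjusted p = 0.00442). Complement C6 fell from 36.9 ± 1.85 to 20.4 ± 3.52 CPM (edgeR adjusted p = 0.00444) and Selenbp2, whose groups overlapped, from 26.6 ± 10.3 to 11.8 ± 4.83 CPM (edgeR adjusted p = 0.0407). Sult2a1, Cyp2b13 and Mup3 have close copies, among which the division of reads is uncertain. The number of female-biased genes that rose was 15 to 18 over the 15 alternatives, and 1 fell without control liver 1 or without knockout liver 2. Of the male-biased genes, 1 fell instead of 2 without control liver 1 or 3 or knockout liver 1 or 2. The difference between the lists was not tested.

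**Figure D5:**
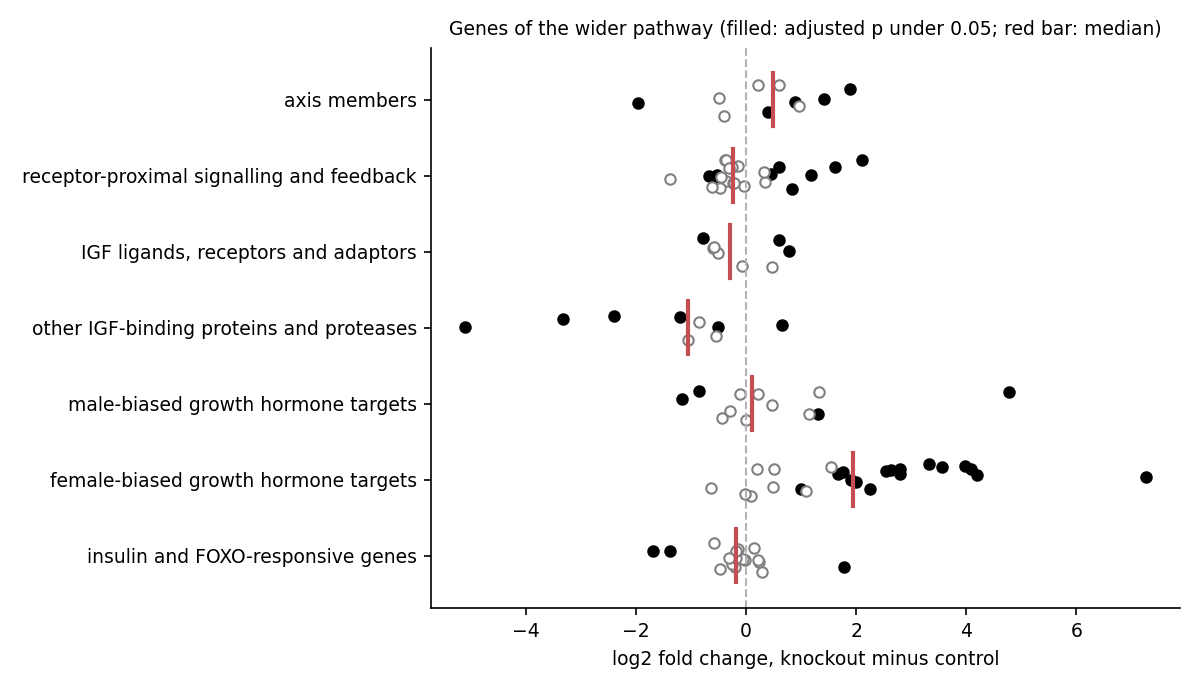
Log2 fold change, knockout minus control, of each tested gene in the 10 members and 6 lists of the wider pathway; filled points passed at an adjusted p under 0.05, and red bars give the median of each row. The median of the female-biased targets is 1.95, and that of the other binding proteins and proteases is −1.05 (−0.55 with at least 50 counts in 3 libraries).

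The genes with the levels most like a member were found by the root mean square difference of log2 CPM over the 6 livers, each gene centred on its own mean, among 8388 protein-coding genes with a mean of at least 10 CPM. For Igf1 they were the threonyl-tRNA synthetase gene Tarsl2 (0.052), the adenylosuccinate synthase Adssl1 (0.087) and the ubiquitin ligase adaptor Klhl13 (0.098). Tarsl2 stood at 11.3, 9.67 and 8.35 CPM in controls and at 15.9, 17.1 and 18.7 CPM in knockouts, the same order of livers as Igf1. For Igfbp1 the nearest was Trp53inp1, a stress-induced gene of the p53 pathway (0.072), at 781, 564 and 555 CPM in controls and 220.4, 176 and 125 CPM in knockouts. Next came Aldh18a1 of proline synthesis (0.198) and the retinol dehydrogenase Dhrs9 (0.263). The nearest to Socs2 were Fbxo21 (0.158), Tbc1d30 (0.170) and Brap (0.172), all 3 of them highest in knockout liver 3. These likenesses are descriptions over 6 livers, without a test.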

How the data were processed

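The authors deposited raw read counts per Ensembl gene, 1 column per mouse and unnormalized. The submitters' processing notes name build GRCm38.p6, featureCounts 1.5.0-p3, StringTie 1.3.3b and HISAT2 2.0.5 with no role. The sources used here do not state strand setting, multimapping or annotation release. Every column was used. Identifiers were matched to GENCODE M21 (GRCm38), and 54495 of 54532 matched. Where 2 identifiers carried 1 symbol, the one with more counts was taken.

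In R 4.3.3, edgeR 4.0.16 was run on all 6 livers with filterByExpr, TMM scaling (trimmed mean of M values) and its quasi-likelihood test, with genotype as the only term. Benjamini-Hochberg adjustment covered 14758 genes, at a threshold of 0.05. SE is the log2 fold change divided by the square root of F, and 95% intervals use its degrees of freedom. CPM use TMM-scaled library sizes. Replicate libraries all differed beyond counting noise (chi-square per degree of freedom 26.9 to 81.9), and the labels give each library as a separate mouse. An exact permutation test of 3 against 3 cannot go below 0.1 (two-sided) and was not used.

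The members, and the other lists with their 193 symbols (1, Tf, unmatched), were chosen with earlier results of these data known. Named were all members, Cd44, Lyz2, the sex chromosome transcripts and the 4 genes of smallest p, or fewer, among those that passed in each pathway list, and the 3 nearest profiles of Igf1, Socs2 and Igfbp1 (log2 CPM with a prior count of 2). Some genes that this rule names are not reported here. Markers of other cell types are given as sums. Promoter sequences are from RefSeq (GRCm38.p6), windows of 300 bases from 250 before each start; 9 of 10 members matched. DESeq2 1.42.0 and limma-voom (limma 3.58.1) were alternatives, with RLE size factors, library totals, other filters, protein-coding genes only, a replicate block and each liver left out. On simulated counts for this comparison (14596 to 14673 genes, 10 draws), 10.7%, 62.7% and 94.5% of genes changed 1.5-fold, 2-fold and 4-fold were recovered, and 7% of calls were false. Far fewer genes were changed in these counts than the 3684 that passed in the data, so the shares do not carry over directly. Figures used matplotlib 3.10.9.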

Additional observations from a re-analysis of the deposited data

How the results depend on the processing

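Ghr, Igf1, Igfals and Igfbp1 kept their direction and passed under all 15 alternatives. The members that fell numbered 1, and 2 (with Igfbp2) with DESeq2, with library totals and with no filter on low counts. They numbered 1 to 2 when each liver was left out in turn, the 2 without control liver 2. The members that rose numbered 4, and 3 to 5 over the alternatives. Over all genes 3684 passed, 1515 at an adjusted p under 0.01, and 2275 to 3413 when each liver was left out in turn (lowest without control liver 2, then 2296 without knockout liver 1). Library totals moved the median log2 of all genes from −0.01 to −0.26 and the share of calls that were higher from 47.5% to 19.6%, and turned Stat5a from 0.22 to −0.05. Stat5a ran from −0.04 (without knockout liver 2) to 0.38 (without knockout liver 3) when each liver was left out. The cause was not tested.

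With the mouse number as a replicate block 3086 genes passed, Stat5b did not (adjusted p = 0.0656), Ddit4 did not (0.0709), Cish did (0.0132), 0 of the other binding proteins rose (Igfbp4 lost its call) and Socs2 had an adjusted p of 0.0526. Same-numbered livers did not deviate together over all genes (correlations −0.03, 0.04 and −0.02), so they share only a number. At 3 livers a group, changes near 1.5-fold were rarely recovered in the simulation. Far fewer genes were changed in it than the 3684 that passed here, which makes the adjusted threshold stricter there. Its recovery therefore does not carry over directly to these data. With 3 livers a group, what can be said of Stat5a, Socs2, Igfbp2 and Igfbp3 stays limited.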
